A study of Mus musculus with 10 samples.

Results

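RASSF genes, Hippo kinases and the Hippo effectors Yap1 and Tead2 were described in mouse medulloblastoma, a tumour of the cerebellum, against adjacent cerebellar tissue. The genes were Rassf1, Rassf2, Rassf3, Rassf4, Rassf5, Rassf8, Stk3, Stk4, Yap1 and Tead2. They were chosen from the tumour and cerebellum values of this same series, so every member difference below is a description with no test. All probe sets naming only one of these symbols were taken. They numbered 24 and covered 9 of the 10 genes, among 18193 genes that some probe set named alone. Stk3 was named by no probe set in the annotation used and was not analysed here.

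The samples were 3 medulloblastomas and 2 pieces of cerebellum, measured on each of 2 Affymetrix arrays, 430A and 430B. All came from CAGGS-CreER;R26-SmoM2 mice that had received tamoxifen, 1 mg per 40 g of body weight, at postnatal day 10. SmoM2 is a permanently active Smoothened, the switch of the Hedgehog pathway, and tamoxifen releases it through CreER, here driven by the broadly active CAGGS promoter. The labels call the cerebellum wild type, but it lay beside the tumours of mice with the same genotype and treatment. The age at collection is not given in the sources used here, and the labels do not say which tumour and which cerebellum came from 1 mouse. The sample numbers recur on both arrays, but no label states that they mark the same RNA, so the arrays were not joined.

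The Hippo pathway is a kinase cascade that limits growth. The kinases MST1 and MST2, encoded by Stk4 and Stk3, activate LATS kinases with the help of SAV1 and MOB1, and LATS phosphorylates YAP1 and keeps it out of the nucleus. Unphosphorylated YAP1 enters the nucleus and switches on genes through TEAD DNA-binding proteins. RASSF1 to RASSF6 hold a Ras association domain and a SARAH domain, by which several of them bind MST kinases, whereas RASSF7 to RASSF10 lack the SARAH domain. In the mouse cerebellum YAP1 is known from dividing granule neuron precursors, the cells from which Hedgehog-driven medulloblastoma can arise.

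The starts of 3 genes are shown, for Rassf4 and Tead2 because they had the widest differences between tumour and cerebellum, and for Yap1 because it is the coactivator that TEAD proteins recruit. Each run covers 250 bases before to 50 after the gene start, 5′ to 3′ on the gene's strand, from RefSeq on GRCm38.p6. Capitals mark the TEAD motif GGAATG.
Rassf4, chr6:116673787-116674086, minus strand: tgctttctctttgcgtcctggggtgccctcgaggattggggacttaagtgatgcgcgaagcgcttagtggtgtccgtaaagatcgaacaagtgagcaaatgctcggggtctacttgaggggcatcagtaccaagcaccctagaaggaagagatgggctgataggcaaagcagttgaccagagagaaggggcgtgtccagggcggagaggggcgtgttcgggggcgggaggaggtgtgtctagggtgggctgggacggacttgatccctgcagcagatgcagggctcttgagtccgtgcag
Tead2, chr7:45215542-45215841, plus strand: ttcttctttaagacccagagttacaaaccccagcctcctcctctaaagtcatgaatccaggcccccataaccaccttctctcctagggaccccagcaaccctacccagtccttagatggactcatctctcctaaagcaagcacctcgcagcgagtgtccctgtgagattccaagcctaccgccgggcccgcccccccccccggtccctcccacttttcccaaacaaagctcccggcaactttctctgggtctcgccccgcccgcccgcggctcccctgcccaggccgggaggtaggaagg
Yap1, chr9:8004547-8004846, minus strand: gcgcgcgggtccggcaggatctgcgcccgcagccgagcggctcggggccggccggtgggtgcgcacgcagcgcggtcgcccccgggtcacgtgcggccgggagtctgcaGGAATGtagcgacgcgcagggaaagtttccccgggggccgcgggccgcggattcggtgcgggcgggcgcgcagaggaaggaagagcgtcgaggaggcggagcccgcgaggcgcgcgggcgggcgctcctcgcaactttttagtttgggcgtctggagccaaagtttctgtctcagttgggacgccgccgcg
The motif lay 141 bases before the start of Yap1. It was also found 213 bases before the start of Rassf2. On either strand, 14.7% of 32851 mouse promoter windows of 300 bases held it. The Rassf4 and Tead2 windows held neither GGAATG nor the GLI motif GACCACCCA, found in 0.253% of windows, nor the E2F motif GGCGGGAA, found in 2.19%. One of the 2 Rassf1 windows held the E2F motif 75 bases before the start, on the minus strand. The motifs do not overlap in these windows, and a match is a description of letters only. Of the 10 genes, 7 had a window in the table used.

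Values are deposited intensities on a linear scale, with no detection call, and the small number of arrays limits their precision. Fold changes are tumour minus cerebellum on log2(intensity + 16), with their standard errors from limma, and understate the change of dim probe sets. Array medians lay between 33.3 and 35.9 on 430A and between 22.5 and 24.0 on 430B. On the 100 probe sets that both arrays carry, the 430B arrays of medulloblastomas 1 and 2 stood apart, with mean log2 values of 8.06 and 8.01, against 7.47 for medulloblastoma 3 and 7.58 and 7.69 for the cerebellum. For the member genes, and for other genes named from 430B, fold changes are given also with medulloblastoma 3 alone and after scaling on those 100 probe sets. The scaling moved the median of all 430B fold changes to -0.25, against -0.02 without it. Gli1, a direct target of the Hedgehog pathway, had 61.9, 77.0 and 53.1 in the tumours, against 11.8 and 14.3 in the cerebellum (log2 fold change 1.45 ± 0.17, adjusted p = 5.66e-05). Smo itself had 60.9, 81.2 and 59.4 in the tumours, against 39.3 and 37.3 in the cerebellum (0.60 ± 0.17, adjusted p = 0.0198), a second probe set gave 1.32 ± 0.19, and whether the probes detect the SmoM2 transcript is not stated. The titles call the samples biological replicates without naming the mice, so the p-values cover the spread among these samples alone. In pieces of tissue fewer cells of a type and less RNA per cell cannot be told apart.

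Rassf4 carried the widest difference of the family. RASSF4 is one of the members with a SARAH domain, and its 3 probe sets all lie on 430B. Probe set 1444009_at had 649, 713 and 410 in the tumours, against 34.1 and 10.1 in the cerebellum. Probe set 1439622_at had 417, 513 and 268 in the tumours, against 11.4 and 8.97 in the cerebellum. Probe set 1431038_at had 169, 185 and 80.7 in the tumours, against 21.3 and 18.9 in the cerebellum. Every tumour lay above both cerebellum samples in all 3 probe sets, and the order of the tumours was the same in each, with medulloblastoma 2 highest and medulloblastoma 3 lowest. The 430B cerebellum arrays had medians of 24.0 and 23.4 and lower quartiles of 11.5 and 10.9. Both cerebellum readings of 1439622_at lay below the lower quartile, those of 1431038_at lay just under the median, and those of 1444009_at fell on either side, above the median in cerebellum 1 and below the quartile in cerebellum 2.

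The mean of Rassf4 in probe set 1444009_at was 591 ± 159 in tumours and 22.1 ± 17.0 in cerebellum (SD, n = 3 and 2), and the cerebellum samples differed widely from each other. The mean in probe set 1439622_at was 399 ± 124 in tumours and 10.2 ± 1.68 in cerebellum. Probe set 1431038_at had means of 145 ± 56.2 in tumours and 20.1 ± 1.68 in cerebellum. The log2 fold changes were 4.03 ± 0.33 for 1444009_at, 3.94 ± 0.26 for 1439622_at and 2.09 ± 0.29 for 1431038_at. Their places among the 16883 fold changes tested on 430B, counted from the highest, were 4, 6 and 116. The gene showed the same direction in each probe set, although the sizes differed between them. With medulloblastoma 3 as the only 430B tumour the log2 fold changes of Rassf4 were 3.56, 3.44 and 1.42 in the same order of probe sets, and after scaling on the shared probe sets 3.76, 3.71 and 1.82. Without cerebellum 1 that of 1444009_at was 4.50 and without cerebellum 2 it was 3.56.

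**Figure D1:**
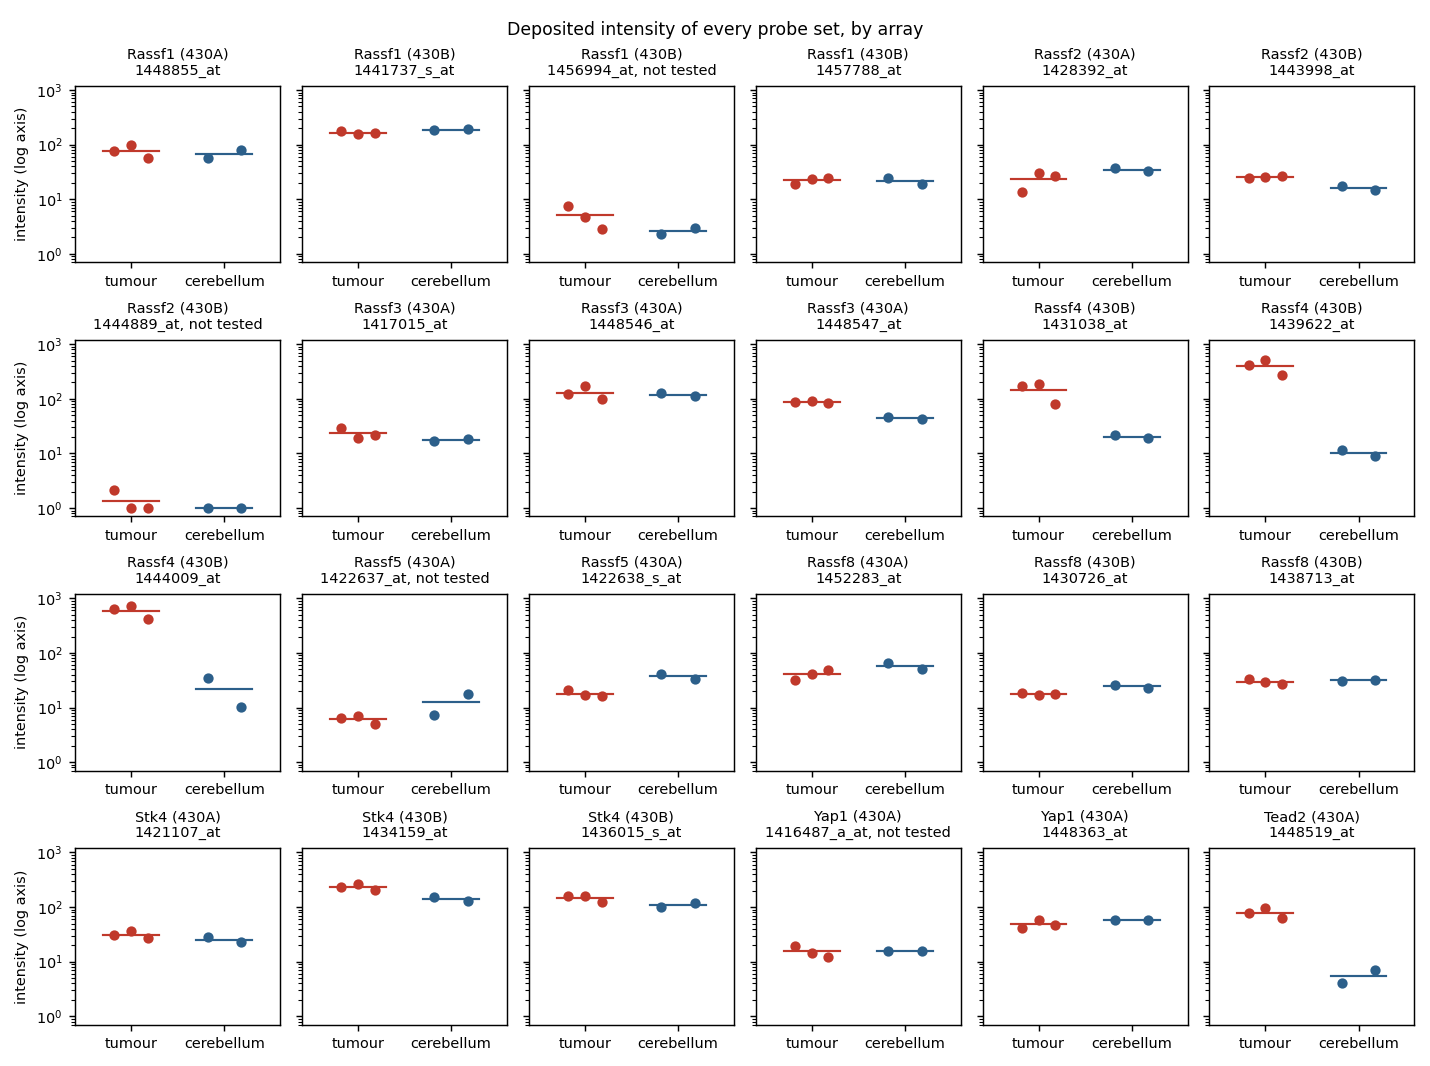
Deposited intensity of every member probe set in each array (log axis), with medulloblastomas left of cerebellum and 1 point per array. The 3 Rassf4 probe sets and the Tead2 probe set lie apart by the widest gaps, whereas both Yap1 probe sets overlap between the tissues.

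Rassf1 encodes an adaptor of MST kinases whose human counterpart is often silenced by methylation in tumours. Its 430A probe set 1448855_at had 75.9, 99.7 and 56.8 in the tumours, against 56.4 and 80.4 in the cerebellum. The groups overlapped, the log2 fold change was 0.14 ± 0.23, and it was -0.07 without cerebellum 1. On 430B, probe set 1441737_s_at had 177, 157 and 166 in the tumours, against 185 and 192 in the cerebellum. All 3 tumours lay below both cerebellum samples there, with a log2 fold change of -0.16 ± 0.21, less than its error. Probe set 1457788_at had 19.0, 23.4 and 24.7 in the tumours, against 24.9 and 19.0 in the cerebellum, and overlapped. Its log2 fold change of 0.02 ± 0.14 became -0.19 after scaling on the shared probe sets, and that of 1441737_s_at became -0.50. With medulloblastoma 3 alone 1457788_at gave 0.11 and 1441737_s_at gave -0.17. The remaining Rassf1 probe set, 1456994_at, read 7.64, 4.73 and 2.85 in the tumours, against 2.27 and 2.94 in the cerebellum, and was too dim for the fit.

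Rassf2, another SARAH-domain member, gave opposite directions on the 2 arrays. On 430A, probe set 1428392_at had 13.3, 29.9 and 26.4 in the tumours, against 37.1 and 32.4 in the cerebellum, so every tumour was lower. The log2 fold change was -0.40 ± 0.19 and -0.20 without medulloblastoma 1, the lowest sample. On 430B, probe set 1443998_at had 24.8, 25.8 and 27.0 in the tumours, against 17.6 and 15 in the cerebellum, so every tumour was higher. There the log2 fold change was 0.37 ± 0.13, 0.18 after scaling on the shared probe sets and 0.41 with medulloblastoma 3 alone. The direction of Rassf2 thus depends on the probe set. The third probe set, 1444889_at, read 2.11 in medulloblastoma 1 and exactly 1 in the other samples.

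Rassf3 has 3 probe sets on 430A, and the sizes of its differences ranged from near 0 to 0.77. Probe set 1448547_at had 88.4, 89.7 and 83.1 in the tumours, against 46.4 and 42.6 in the cerebellum. The means were 87.1 ± 3.50 in tumours and 44.5 ± 2.67 in cerebellum (SD, n = 3 and 2), and the log2 fold change was 0.77 ± 0.16. Both groups were tight and did not overlap. Probe set 1417015_at had 29.2, 19.1 and 21.4 in the tumours, against 17.2 and 18.1 in the cerebellum, with every tumour higher and a log2 fold change of 0.21 ± 0.15, or 0.11 without medulloblastoma 1. Probe set 1448546_at had 121, 168 and 101 in the tumours, against 126 and 110 in the cerebellum. These overlapped, and the log2 fold change of 0.10 ± 0.23 became -0.08 without medulloblastoma 2.

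Rassf5, whose product binds the GTPase Rap1 and MST1 in lymphocytes, was lower in the tumours. Probe set 1422638_s_at on 430A had 21.1, 16.9 and 16.1 in the tumours, against 41.2 and 32.9 in the cerebellum. The means were 18.04 ± 2.70 in tumours and 37.1 ± 5.84 in cerebellum (SD, n = 3 and 2), with no overlap and a log2 fold change of -0.64 ± 0.15. The dimmer probe set 1422637_at read 6.35, 7.07 and 5.02 in the tumours, against 7.39 and 17.5 in the cerebellum, again with every tumour lower. It was too dim for the fit. The 3 lymphocyte markers bright enough for the fit summed to between 79.1 and 103 in the tumours and between 84.7 and 89.8 in the cerebellum, and none of the 3 passed the test in limma, nor had an unadjusted p below 0.05.

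Rassf8 belongs to the group without a SARAH domain. On 430A, probe set 1452283_at had 31.6, 41.1 and 49.2 in the tumours, against 64.7 and 51.5 in the cerebellum. Every tumour was lower, although medulloblastoma 3 lay close to cerebellum 2, and the log2 fold change was -0.39 ± 0.18. On 430B, probe set 1430726_at had 18.6, 17.3 and 17.6 in the tumours, against 25.8 and 23.0 in the cerebellum, also with every tumour lower and a log2 fold change of -0.26 ± 0.13. Probe set 1438713_at had 33.6, 29.6 and 26.6 in the tumours, against 30.7 and 32.1 in the cerebellum. It overlapped, with a log2 fold change of -0.05 ± 0.14. Scaling on the shared probe sets gave -0.46 for 1430726_at and -0.29 for 1438713_at, and medulloblastoma 3 alone gave -0.26 and -0.15.

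Stk4, the gene of the kinase MST1, was somewhat higher in the tumours by 2 of its 3 probe sets. On 430B, probe set 1434159_at had 229, 260 and 205 in the tumours, against 155 and 129 in the cerebellum. The means were 231 ± 27.6 in tumours and 142 ± 17.96 in cerebellum (SD, n = 3 and 2), and the log2 fold change was 0.64 ± 0.22. Probe set 1436015_s_at had 157, 161 and 123 in the tumours, against 100 and 119 in the cerebellum, with a log2 fold change of 0.37 ± 0.21. Neither overlapped, but both rest on the 430B arrays that stood apart. Scaling on the shared probe sets left 0.30 for 1434159_at and 0.04 for 1436015_s_at, and medulloblastoma 3 alone gave 0.49 and 0.15. On 430A, probe set 1421107_at had 30.9, 36.6 and 26.7 in the tumours, against 27.8 and 22.8 in the cerebellum, and overlapped, with a log2 fold change of 0.20 ± 0.15.

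The effectors differed from each other. Yap1 had 41.6, 59.1 and 47.1 in the tumours, against 58.3 and 56.9 in the cerebellum, by probe set 1448363_at of 430A. Medulloblastoma 2 lay above both cerebellum samples and the other 2 tumours below them, and the log2 fold change was -0.18 ± 0.17. The dim probe set 1416487_a_at read 19.6, 14.6 and 12.4 in the tumours, against 15.9 and 15.9 in the cerebellum, and likewise overlapped.

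Tead2, a TEAD factor known from embryonic and neural progenitor tissue, had 77.0, 96.7 and 63.7 in the tumours, against 4.03 and 7.14 in the cerebellum, by its 1 probe set, 1448519_at of 430A. The cerebellum lay below the lower quartile of its arrays, 15.9 and 15.1, and all 3 tumours lay far above both samples. The means were 79.1 ± 16.6 in tumours and 5.59 ± 2.20 in cerebellum (SD, n = 3 and 2). No ratio is given, because the cerebellum readings are not shown to be above background. The log2 fold change on the scale used was 2.13 ± 0.18, and it lay between 1.999 and 2.249 when any 1 sample was left out. For Tead2 and Rassf4 the size depends on the constant added before the logarithm. With 1 in place of 16 the log2 fold change was 3.63 for Tead2 and 4.87, 5.12 and 2.70 for the Rassf4 probe sets 1444009_at, 1439622_at and 1431038_at. With 64 it was 1.03 for Tead2 and 2.91, 2.61 and 1.27 for those of Rassf4.

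**Figure D2:**
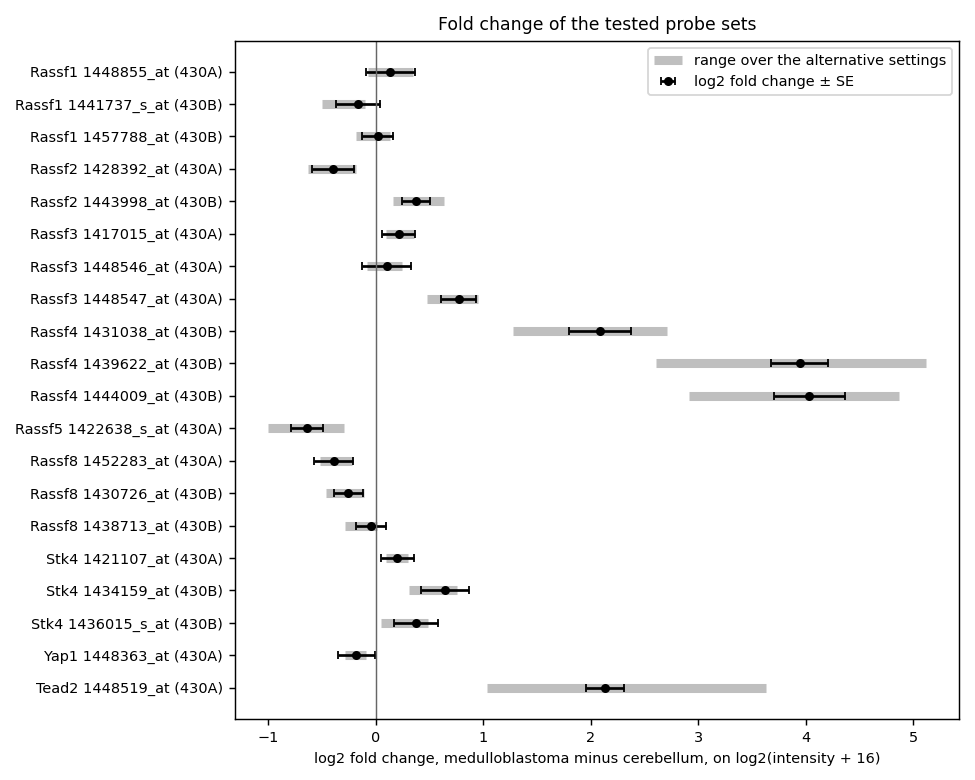
Log2 fold change, medulloblastoma minus cerebellum, of the 20 member probe sets in the fit, with bars of 1 standard error. The 3 Rassf4 probe sets and Tead2 lie at 2.09 or above, and all others lie between -0.64 and 0.77.

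Of the 24 member probe sets, 20 were bright enough for the fit, 10 on each array. On 430A, 2 of the 10 passed an adjusted p below 0.05 as higher in the tumours, Tead2 and 1448547_at of Rassf3, where 13.1% of all 16969 probe sets did. Rassf5 alone was called lower, where 19.0% of all were. Without cerebellum 1 no member on 430A was called lower, and without cerebellum 2 only 1 was called higher. All tumours lay above the cerebellum in 3 of the 10 and below it in 3, where the shares of all 430A probe sets were 23.8% and 31.8%. On 430B, the 3 probe sets of Rassf4 were called higher, where 7.85% of all 16883 were, and none was called lower, where 9.77% were. All tumours lay above the cerebellum in 6 of the 10 and below it in 2, where the shares of all 430B probe sets were 20.8% and 24.7%. The members were chosen on this contrast, so these calls are no test of them, and nothing is read from their counts. Their median log2 fold change was 0.12 on 430A, where that of all probe sets was -0.05, and 0.37 on 430B, where that of all was -0.02. On 430B the called probe sets were 1326 higher and 1649 lower as deposited, and 759 higher and 2642 lower after scaling on the shared probe sets.

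The rest of the pathway was read from lists that hold no member, with 1 probe set per gene. Over all 14702 genes, 10.7% were called higher and 16.1% lower, with a median log2 fold change of -0.05. Of the Hippo core, its upstream regulators and the STRIPAK phosphatase complex that opposes MST kinases, 31 of 34 genes were tested. In this list 4 rose, which is 12.9%, and 8 fell, which is 25.8%, and the median log2 fold change was -0.03. With quantile normalization or equal array medians 7 fell, and with 1 tumour left out between 7 and 9 fell. Fewer fell than in the main fit when either cerebellum sample was left out, where 1 cerebellum sample remains. By the probe set chosen for each gene, Mob1a was the only core gene called. The scaffold gene Sav1 gave 0.35 ± 0.19 on the log2 scale (limma, adjusted p = 0.195), and the kinase genes Lats1 and Lats2 had 0.11 ± 0.14 and -0.08 ± 0.19 (adjusted p = 0.609 and 0.805). Lats1 was dim there, with 24.2, 20.4 and 22.2 in the tumours, against 19.2 and 19.8 in the cerebellum. Its brighter 430B probe set had 192, 142 and 144 in the tumours, against 127 and 121 in the cerebellum (0.31 ± 0.21, adjusted p = 0.386). That probe set gave 0.20 with medulloblastoma 3 alone and -0.02 after scaling on the shared probe sets. Lats2 depended on the probe set. Its brightest, of the _x_at type, had 30.2, 34.4 and 48.3 in the tumours, against 131 and 138 in the cerebellum (-1.50 ± 0.19, adjusted p = 0.000102), another gave -0.93 ± 0.15 (adjusted p = 0.00071), and the fourth tested gave 0.12 ± 0.17 (adjusted p = 0.648). Nf2, which encodes the upstream activator Merlin, had 0.34 ± 0.18 (adjusted p = 0.178).

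Map4k4, whose kinase phosphorylates LATS in parallel to MST, rose with 71.1, 93.5 and 66.6 in the tumours, against 10.8 and 15.2 in the cerebellum (log2 fold change 1.68 ± 0.17, adjusted p = 2.67e-05). Its 3 other tested probe sets gave log2 fold changes between 1.23 and 1.57, and all passed. The one on 430B gave 1.57, 1.67 with medulloblastoma 3 alone and 1.24 after scaling on the shared probe sets. Wtip, whose product is a LIM protein that binds LATS, rose by 1.07 ± 0.18 on the log2 scale (adjusted p = 0.00197), and gave 0.80 with medulloblastoma 3 alone and 0.83 after scaling on the shared probe sets. Mob1a, the LATS cofactor gene, had 316, 319 and 343 in the tumours, against 180 and 133 in the cerebellum. Its log2 fold change was 1.00 ± 0.20 (adjusted p = 0.00301), its 2 other probe sets gave 0.89 and 0.70, and the call was lost without cerebellum 2 (0.80, adjusted p = 0.0675). Dchs1, a giant cadherin gene, rose by 0.54 ± 0.15 (adjusted p = 0.0305), gave 0.72 with medulloblastoma 3 alone, and after scaling on the shared probe sets gave 0.31 (adjusted p = 0.39). Without medulloblastoma 2, cerebellum 1 or cerebellum 2 that of Dchs1 was 0.0735, 0.215 or 0.145.

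Strip2, a STRIPAK component, fell furthest in this list, with 7.73, 3.76 and 1.85 in the tumours, against 104 and 96.8 in the cerebellum (log2 fold change -2.52 ± 0.15, adjusted p = 5.85e-06). With medulloblastoma 3 alone Strip2 gave -2.71, and after scaling on the shared probe sets -2.76. Amot, whose product angiomotin binds YAP1 at cell junctions, had 19.6, 29.4 and 44.2 in the tumours, against 144 and 130 in the cerebellum (log2 fold change -1.73 ± 0.22, adjusted p = 0.000106). Its other tested probe set gave 0.19 (adjusted p = 0.465), so the fall holds for 1 of 2. Taok3 and Taok1 encode TAO kinases, which act on MST. Taok3 had -1.19 ± 0.18 as its log2 fold change (adjusted p = 0.000352), and its other probe sets gave -0.96, -0.20 and -0.03. Of these the one at -0.20 lies on 430B and gave -0.19 with medulloblastoma 3 alone and -0.38 after scaling. Taok1 had 460, 558 and 458 in the tumours, against 1065 and 1120 in the cerebellum (log2 fold change -1.13 ± 0.18, adjusted p = 0.000545). With quantile normalization Taok1 gave -0.58 (adjusted p = 0.0335). Its other 430A probe sets gave -1.05, -0.82 and -0.40, of which the first 2 passed (adjusted p = 0.00349, 0.0354 and 0.0757). Its 3 probe sets on 430B gave 0.30, 0.30 and 0.07, and none passed. After scaling on the shared probe sets these were between -0.07 and 0.04, and with medulloblastoma 3 alone between -0.30 and 0.31. Frmd6, an upstream FERM-domain gene, fell by 1.01 ± 0.16 on the log2 scale (adjusted p = 0.000603).

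**Figure D3:**
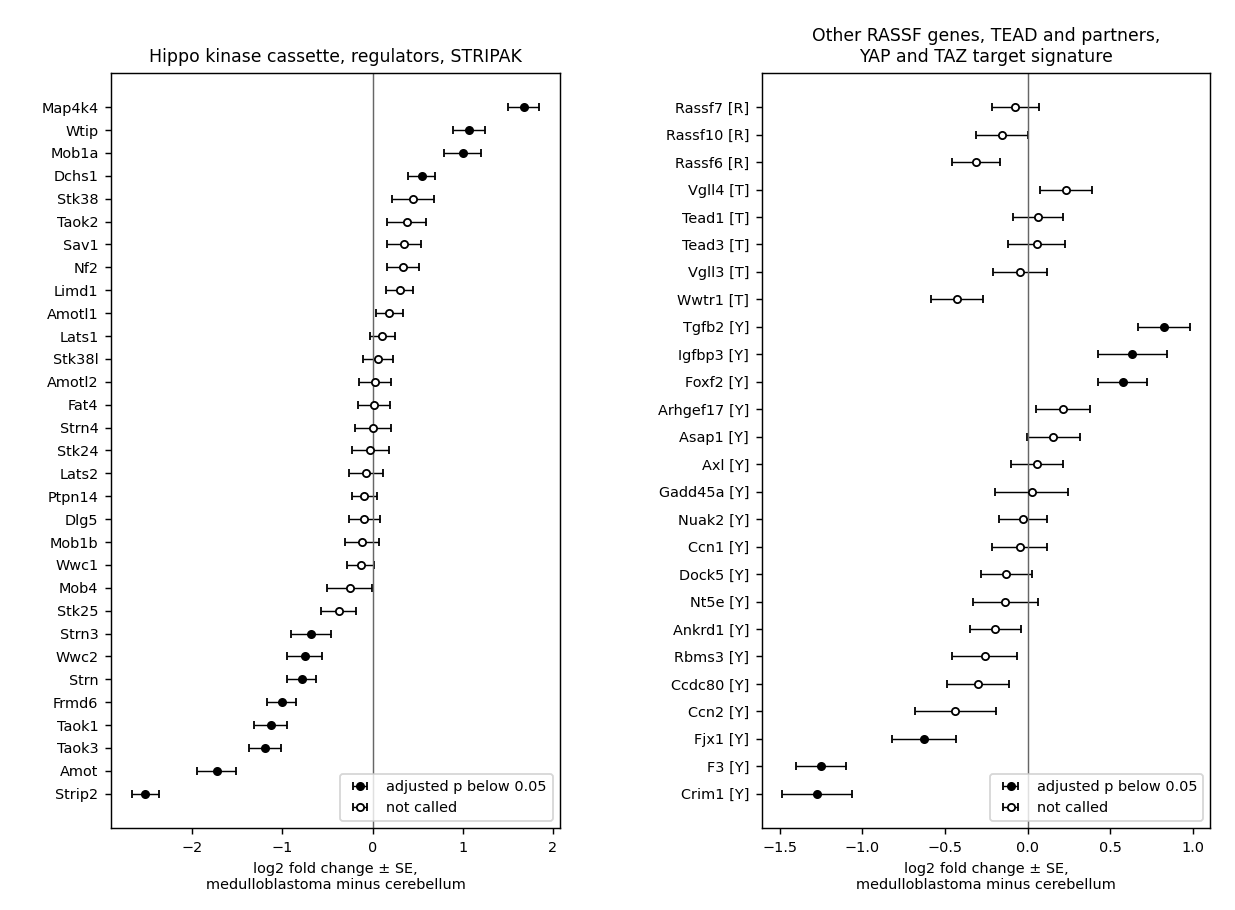
Log2 fold change, medulloblastoma minus cerebellum, of every tested gene in the pathway lists that hold no member, by list, with filled points for an adjusted p below 0.05. Each gene is drawn once, so Amotl2, Lats2 and Ptpn14 appear in the regulator list only. Map4k4 at 1.68 and Strip2 at -2.52 are the ends of the regulator list.

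Of the other RASSF genes, 3 of 4 were tested and limma called none in either direction, nor did any have an unadjusted p below 0.05. Rassf6, Rassf7 and Rassf10 had log2 fold changes of -0.31 ± 0.15, -0.07 ± 0.14 and -0.16 ± 0.16 (adjusted p = 0.196, 0.751 and 0.582). Rassf6 and Rassf10 lie on 430B and gave -0.48 and -0.44 after scaling on the shared probe sets, and -0.19 and -0.11 with medulloblastoma 3 alone. Among TEAD factors and YAP partners, 5 of 7 were tested and limma called none, with 1 at an unadjusted p below 0.05. That gene was Wwtr1, which encodes the YAP relative TAZ and had 42.4, 47.3 and 48.5 in the tumours, against 69.6 and 65.5 in the cerebellum (log2 fold change -0.43 ± 0.16, adjusted p = 0.0581). Tead1 depended on the probe set. The chosen one, on 430A, was dim, with 14.1, 16.2 and 21.8 in the tumours, against 17.2 and 14.6 in the cerebellum. The lower quartiles of those arrays lay between 14.6 and 15.9. This probe set gave a difference of 0.06 ± 0.15 on the log2 scale (adjusted p = 0.804). The brighter 430B probe set of Tead1 had 294, 207 and 316 in the tumours, against 63.2 and 55.7 in the cerebellum (1.92 ± 0.23, adjusted p = 0.00031). Scaling on the shared probe sets left 1.602 for that 430B probe set, and medulloblastoma 3 alone gave 2.14.

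Of 22 genes in a signature of YAP and TAZ targets, 21 were tested, 3 rose and 3 fell, 14.3% each way, and the median log2 fold change was -0.08. Amotl2, Lats2 and Ptpn14 of this list are also in the regulator list, and the probe set dependence of Lats2 holds here too. The widely used targets gave no call. Ccn1 and Ccn2, which encode matricellular proteins, had log2 fold changes of -0.05 ± 0.17 and -0.44 ± 0.25 (limma, adjusted p = 0.868 and 0.217), and Ankrd1 had -0.20 ± 0.16 (adjusted p = 0.393). Tgfb2, a TGF-beta ligand gene, rose by 0.82 ± 0.16 (adjusted p = 0.00186), and its other tested probe set gave 0.66 (adjusted p = 0.00302). The growth factor binding protein gene Igfbp3 rose by 0.63 ± 0.21 (adjusted p = 0.0381) and lost its call without medulloblastoma 1, medulloblastoma 3 or cerebellum 1 (adjusted p = 0.102, 0.115 and 0.308), as it did with no filter (0.0647) or no trend (0.0582). Its brighter 430B probe set gave 0.41 ± 0.18 (adjusted p = 0.17), 0.22 with medulloblastoma 3 alone and 0.10 after scaling on the shared probe sets. The forkhead gene Foxf2 rose by 0.58 ± 0.15 (adjusted p = 0.0113), and without cerebellum 1 or cerebellum 2 the adjusted p was 0.0958 or 0.0503.

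Crim1, which encodes a transmembrane binder of BMPs, fell with a log2 fold change of -1.28 ± 0.21 (adjusted p = 0.000732). F3, the tissue factor gene, had 11.5, 10.1 and 13.1 in the tumours, against 42.7 and 57.2 in the cerebellum (log2 fold change -1.25 ± 0.15, adjusted p = 8.4e-05). Fjx1 fell with -0.63 ± 0.19 (adjusted p = 0.028) and lost its call without medulloblastoma 1 or cerebellum 2 (adjusted p = 0.111 and 0.251).

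The tested markers of granule neuron precursors, mature granule neurons, Purkinje cells and oligodendrocytes all moved with the tissue labels, whereas the other lists did so in part or not at all. All 6 granule neuron precursor markers rose and summed to between 2323 and 3297 on 430A in the tumours, against between 128 and 290 in the cerebellum. All 9 mature granule neuron markers, 6 Purkinje cell markers and 5 oligodendrocyte markers that were tested fell. Of 12 microglia and macrophage markers, 9 rose, and their sum was between 1618 and 2020 in the tumours and between 569 and 666 in the cerebellum. Of 10 markers of Bergmann glia and astrocytes, 6 fell and Sox9 rose, and the 9 on 430A summed to between 774 and 1648 in the tumours and between 3311 and 3802 in the cerebellum. Of 8 endothelial markers Flt1 fell, with sums between 403 and 479 in the tumours and between 442 and 517 in the cerebellum. Of 4 fibroblast markers Col3a1 rose, with sums between 280 and 475 in the tumours and between 239 and 244 in the cerebellum. No tested marker sat at 1 in every array. The part of these cell types in the values of Rassf4, Tead2, Rassf5, Stk4 and the pathway genes was not tested.

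**Figure D4:**
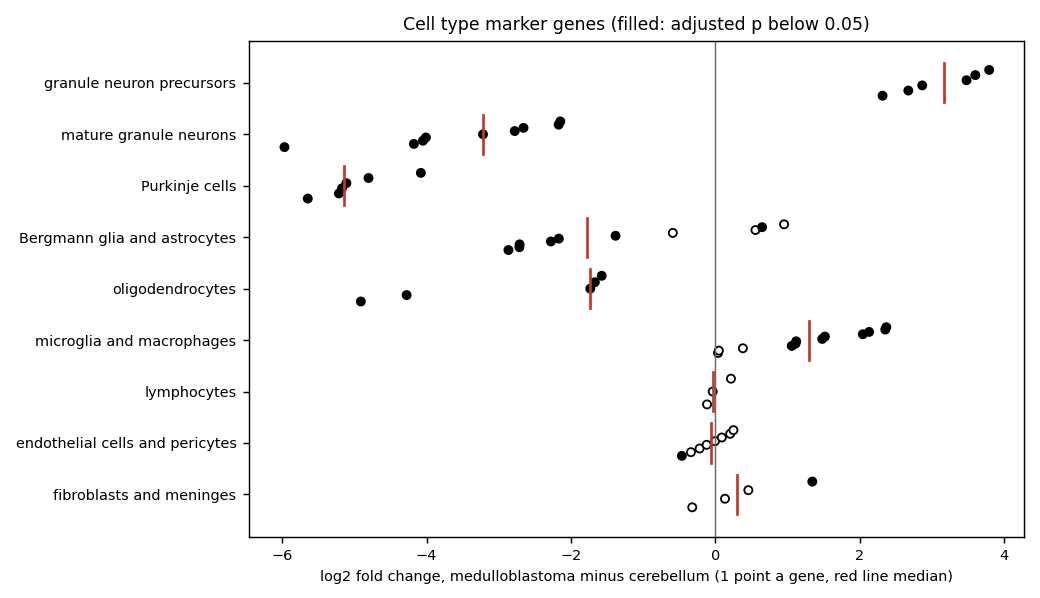
Log2 fold change, medulloblastoma minus cerebellum, of every tested cell type marker, by list, with filled points for an adjusted p below 0.05. Granule neuron precursor markers lie to the higher side and mature granule neuron, Purkinje and oligodendrocyte markers to the lower side.

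Genes with the most similar course over the 5 arrays of a chip were found for the brightest tested probe set of each member, by the root mean square distance of log2 values centred on their means. For Rassf4 these were Dcc, a netrin receptor gene, at 0.16, Cdk6, a cell cycle kinase gene, at 0.28, and Cavin2 at 0.30. For Tead2 they were Irs1, an insulin receptor substrate gene, at 0.057, the splicing regulator gene Ptbp1 at 0.082 and the spindle gene Tpx2 at 0.083. Those of Yap1 were Ccm2l, Actn1 and Eral1, and those of Stk4 were Ppp1r9a, Cd163l1 and Tmem219. By its 430A probe set, Rassf2 lay nearest to Tlr8, Hcst and Dgke. The nearest for Rassf1 were Kdm3b, Mrpl58 and Usp30, for Rassf3 Dnaaf5, Snrnp48 and Tubb2a-ps2, for Rassf5 Fosl1, Pcnx4 and Dennd6a, and for Rassf8 Glyr1, Ifnz and Cd164. No member was among the nearest genes of another member. With 5 arrays many genes share such a course, and the distance describes likeness only.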

How the data were processed

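The samples were medulloblastomas and adjacent cerebellum on Affymetrix 430A and 430B chips. The authors deposited 1 linear intensity per probe set and array. Trizol extraction and biotinylated cRNA are recorded, per the labels' protocols. How the arrays were summarised and scaled is not given in the sources used here. No column was left unmapped.

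Intensities were analysed as log2(intensity + 16), and the dimmest 25% of probe sets by mean were dropped. The chips were fitted separately in R 4.3.3 with limma 3.58.1 (lmFit, eBayes with an intensity trend, two-sided, Benjamini-Hochberg over the chip), and calls were made at adjusted p below 0.05. Array medians differed too little for further normalization under the limit of 0.5 log2 units. The fit was tested on simulated data.

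Gene names came from the platform annotation. A pathway or marker gene was represented by 1 probe set, preferring 430A to 430B, next a suffix that is neither _s_at nor _x_at, and last the brightest. The text names all member probe sets, up to 5 genes per pathway list and direction (those with the widest called differences), and the 3 nearest patterns per member. Sav1, Lats1, Lats2, Nf2, Ccn1, Ccn2, Ankrd1, the other RASSF genes, Wwtr1 and Tead1, and the called marker genes Sox9, Flt1 and Col3a1, were named besides, after their values were seen. The members and lists were chosen with earlier results of these data known.

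Alternatives were quantile normalization, equal array medians, a pseudocount of 1 or 64, 430B scaled on the 100 shared probe sets, no filter or one of 50%, no trend, the replicate number as a block, each sample left out in turn, and the brightest probe set of a gene. Using medulloblastoma 3 as the only 430B tumour was added after seeing the data, and only fold changes of that fit are given. Python 3.11.15 with matplotlib 3.10.9 made the figures.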

Additional observations from a re-analysis of the deposited data

How the results depend on the processing

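Of the 24 member probe sets, 20 were in the fit. No fold change called there changed sign in the other settings fitted, 14 for Rassf5 and 15 for the others. Filter and trend settings cannot change a fold change, and the 430B settings leave 430A values as they are. The replicate block repeats the fold changes found without medulloblastoma 3. Among those not called, Rassf1 1457788_at kept its sign in 9 of 14 settings. Rassf1 1448855_at and Rassf8 1438713_at kept theirs in 13 of 15, Rassf3 1448546_at in 14 of 15, and the rest in all. With 50% of probe sets left out, TEAD factors and YAP partners had 1 gene higher and 1 lower, against 0 and 0, and the YAP and TAZ signature had 0 genes higher, against 3. With the brightest probe set of a gene, TEAD factors and YAP partners had 1 gene higher, which was Tead1 by its 430B probe set. Leaving out 1 sample at a time gave between 0 and 1 TEAD factors and YAP partners lower (1 without medulloblastoma 2). It gave between 1 and 3 YAP and TAZ targets higher (1 without cerebellum 1) and between 2 and 4 regulators higher (2 without cerebellum 2). Over all genes, 1579 were higher and 2373 lower, against 945 and 1705 without cerebellum 1 and 880 and 1453 without cerebellum 2. With 1 cerebellum sample left, the fit assumes that it varies like the tumours, and fewer samples are compared.

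The samples of the tissues share numbers. Deviations of same-numbered samples from their group means had correlations of -0.03 and 0.17 on 430A and 0.11 and 0.02 on 430B. With 2 cerebellum samples the deviations of 1 mirror those of the other. These values therefore cannot tell whether a tumour and a cerebellum came from 1 mouse, and the main fit used no pairing. With the replicate block, 2144 genes were higher and 2714 lower. Quantile normalization gave 1982 higher and 2056 lower, and equal array medians gave 1780 and 2111, so the share of all genes called each way depends on normalization. Beyond these and the values given in the results, no list count moved by over 1.5 times. With 3 tumours and 2 cerebellum samples of unstated age, the number of arrays limits every value. Dim cerebellum readings leave the sizes of the differences of Tead2 and of all Rassf4 probe sets uncertain.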
